A study of Mus musculus with 3 samples.

Results

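Trem2, its signalling adaptor Tyrobp and 7 genes that activated microglia are known to raise (Cst7, Spp1, Igf1, Clec7a, Itgax, Gpnmb and Cd72) were followed through single-cell RNA sequencing (scRNA-seq) of mouse brain after stroke. The 9 genes were chosen by symbol, with results of these data known, from a table of 31053 genes, and 8 of them had a row of counts. The level of Clec7a, the beta-glucan receptor dectin-1, was not analysed here, which leaves 6 induced members. Brain tissue came from mice labelled as strain C56BL6 and 10 weeks of age in 3 conditions: control, ischemic stroke (IS) and hemorrhagic stroke (HS). The methods give 8 mice for each condition, taken into 1 library per condition, so no library holds a replicate. The mice of the scRNA-seq carried no transgene that the labels name. In the study, ischemic stroke was made by occlusion of the middle cerebral artery and hemorrhagic stroke by collagenase in the brain; the sources used here give no day of collection for the scRNA-seq. The 3 libraries are told apart by a suffix of 1, 2 or 3 on each cell barcode, and neither the labels nor the table says which suffix is which condition. Values are therefore given by suffix, and no condition is assigned to any of them.

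Trem2 is a surface receptor of microglia and other myeloid cells that binds lipids, lipoproteins and debris. It has no signalling motif of its own and signals through Tyrobp (DAP12), an adaptor whose phosphorylated tail recruits the kinase Syk. In mouse models of demyelination and amyloid, microglia that lack Trem2 fail to take up the full activated state in which Cst7, Spp1, Igf1, Itgax, Clec7a and Gpnmb rise and homeostatic genes such as P2ry12 and Tmem119 fall.

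In the GRCm38 annotation (GENCODE M21) Trem2 lies at chr17:48346401-48354147 and Tyrobp at chr7:30413760-30417585, both on the plus strand. The secreted members lie at chr2:150570415-150578944 (Cst7), chr5:104435118-104441050 (Spp1) and chr10:87858265-87937042 (Igf1), also on the plus strand. The surface members lie at chr7:128129547-128150657 (Itgax, plus), chr6:49036546-49070929 (Gpnmb, plus) and chr4:43446462-43454628 (Cd72, minus). UMIs were counted over whole genes, so no exon or isoform is told apart.

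Promoter sequence is shown for the receptor gene Trem2 and for a pair of induced members. It was read from RefSeq (GRCm38.p6), which held 8 of the 9 members, and each run below is the 250 bases before a listed transcription start, on the plus strand. Capitals mark GAGGAA, the core letters bound by the myeloid factor PU.1, or TGANTCA, the letters bound by AP-1 factors, on either strand; the patterns do not overlap here. The Trem2 run is chr17:48346151-48346400, the Spp1 run is chr5:104434861-104435110, before the first of its listed starts, and the Itgax run is chr7:128129300-128129549.
Trem2: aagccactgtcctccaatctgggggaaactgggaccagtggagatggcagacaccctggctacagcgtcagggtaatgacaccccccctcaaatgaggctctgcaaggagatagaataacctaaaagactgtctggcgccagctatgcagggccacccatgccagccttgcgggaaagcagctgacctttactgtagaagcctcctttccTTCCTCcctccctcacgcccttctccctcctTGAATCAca
Spp1: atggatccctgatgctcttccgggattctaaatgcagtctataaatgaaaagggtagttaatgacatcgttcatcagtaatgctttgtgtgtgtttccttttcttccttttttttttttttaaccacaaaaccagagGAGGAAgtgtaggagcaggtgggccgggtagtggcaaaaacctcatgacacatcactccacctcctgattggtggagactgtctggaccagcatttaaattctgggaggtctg
Itgax: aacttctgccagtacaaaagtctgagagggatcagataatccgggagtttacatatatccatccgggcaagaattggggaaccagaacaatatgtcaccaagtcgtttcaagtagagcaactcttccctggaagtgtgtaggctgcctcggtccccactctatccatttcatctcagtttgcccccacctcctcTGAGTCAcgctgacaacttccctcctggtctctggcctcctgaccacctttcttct
The PU.1 letters began 40 bases before the start in Trem2, on the minus strand, and 113 bases before it in Spp1. AP-1 letters began 9 bases before the start of Trem2 and 56 bases before that of Itgax. A member was counted once for a match in any of its listed windows, whereas the percentages count single promoters, so these shares differ in unit. GAGGAA was in a window of 5 of the 8 members (Trem2, Spp1, Igf1, Clec7a and Cd72) and in 23.3% of 32851 listed promoters. TGANTCA was in 3 of the 8 (Trem2, Igf1 and Itgax) and in 6.75% of the promoters. Neither CACGTG nor CATGTG, letters bound by MITF and TFE factors, was in any of the 8, against 6.02% and 12.3% of all promoters. A match is letters only and says nothing of binding.

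The libraries of suffix 1, 2 and 3 gave 8969, 13769 and 9244 barcodes with at least 1000 UMIs (unique molecular identifiers, each 1 counted RNA molecule) and at most 30% mitochondrial counts, with medians of 6389, 5801 and 6287.5 UMIs. Between 24 and 43 barcode sequences were shared by a pair of libraries, and they were kept apart by suffix. Microglia were barcodes in which C1qa, C1qb and C1qc made up at least 0.5% of UMIs, and macrophages were barcodes with a UMI of both Mrc1 and Pf4. This gave 12583 microglia (3660, 6517 and 2406 by suffix) and 230 macrophages (28, 21 and 181). Other classes were named by UMIs of 3 or more gate genes, among them 9084 oligodendrocytes, 2408 T cells, 1914 neuroblasts, 310 neutrophils and 265 NK cells. A level below is the summed UMIs of a gene scaled to 1e+06 UMIs of its class (CPM), with an exact Poisson 95% interval that covers counting error only. Levels of different genes are not compared. A summed level in a class cannot tell fewer expressing cells from less RNA per cell, so the share of barcodes with a UMI is given beside it, with an exact Clopper-Pearson 95% interval.

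The microglial class carried P2ry12, a defining gene of microglia, in every library. It was at 320, 272 and 763 CPM by suffix, and Cx3cr1 at 901, 801 and 1667 CPM. Of 6 genes of border macrophages, Lyve1, Cd163, F13a1 and Cbr2 were at 2.07 CPM or less in microglia of every library. Ms4a7 was at 58.9, 53.2 and 1.89 CPM, with a UMI in 14.15%, 13.75% and 0.623% of microglia. Stab1 was at 47.8, 33.0 and 102 CPM, with a UMI in 31.1%, 22.6% and 46.3%. UMIs of these genes were thus found in barcodes of the microglial gate too. That gate rests on C1q, so macrophages without a UMI of both Mrc1 and Pf4 would be counted as microglia. Of the microglia, 98 also passed the monocyte/dendritic gate. The part of macrophages in the levels of the microglial class was not tested. Macrophages held Cd163 at 76.1, 38.1 and 171 CPM, but they were less alike across libraries: F13a1 was at 149, 174 and 650 CPM and Cbr2 at 89.9, 125 and 456 CPM. Of the 230 macrophages, 217 also passed the C1q gate of microglia, so C1q does not separate the classes. At the edge of the C1q gate, 163 barcodes with 0.5% to 0.6% C1q held Trem2 at 972 CPM and 192 barcodes with 0.4% to 0.5% held it at 729 CPM, with a Trem2 UMI in 79.8% and 73.4% of them. Cst7, Igf1 and Gpnmb were also higher in CPM just inside the gate. Tyrobp, Itgax, Cd72 and Spp1 were higher just outside it, Spp1 at 4524 CPM against 2405 CPM inside.

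Trem2 itself was present in nearly every microglial barcode of every library. Its level was 2956 CPM (2938 to 2974) in suffix 1, 3179 CPM (3165 to 3193) in suffix 2 and 2055 CPM (2033 to 2077) in suffix 3. A Trem2 UMI was found in 98.99%, 98.9% and 98.4% of microglia in that order. The library of suffix 3 was thus lower in CPM, while its share of positive microglia was within 1 percentage point of the others. Tyrobp was at 4434 CPM in suffix 1, 4952 CPM in suffix 2 and 2156 CPM in suffix 3, and in 98.7%, 99.4% and 98.6% of microglia. Suffix 3 held both genes below the other libraries by more than their counting intervals.

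The 6 induced members behaved otherwise: they were plentiful in microglia of suffix 1 and 2 and close to missing in suffix 3. Cst7, which encodes the lysosomal protease inhibitor cystatin F, was at 937 CPM in suffix 1, 1278 CPM in suffix 2 and 5.49 CPM (4.43 to 6.73) in suffix 3. A Cst7 UMI was found in 61.3%, 72.2% and 3.16% of microglia. Spp1, which encodes the secreted matrix protein osteopontin, was at 7717 CPM, 14643 CPM and 7.44 CPM (6.20 to 8.86). The value of suffix 3 lies far under both others. Igf1, the growth factor insulin-like growth factor 1, was at 200.5 CPM in suffix 1, 253 CPM in suffix 2 and 1.18 CPM (0.721 to 1.82) in suffix 3.

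Among the surface proteins, Itgax, the alpha chain of the integrin CD11c/CD18, was at 55.9 CPM, 66.8 CPM and 2.42 CPM by suffix. Gpnmb, a transmembrane glycoprotein of lysosomes and the cell surface, was at 216 CPM in suffix 1, 187 CPM in suffix 2 and had no UMI in the 2406 microglia of suffix 3, where 3 counts would be 0.177 CPM, or 0.125% of barcodes with a UMI; this limits barcodes with a UMI, not cells that express the gene. Gpnmb was the only induced member with a higher level in suffix 1 than in suffix 2. Cd72, an inhibitory receptor of B cells and myeloid cells, was at 148 CPM, 243 CPM and 5.96 CPM, with a UMI in 40.9%, 50.3% and 3.82% of microglia. The plot of levels by library shows Trem2 and Tyrobp on the left, within 2.30-fold between libraries, and the 6 induced members spread over orders of magnitude.

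**Figure D1:**
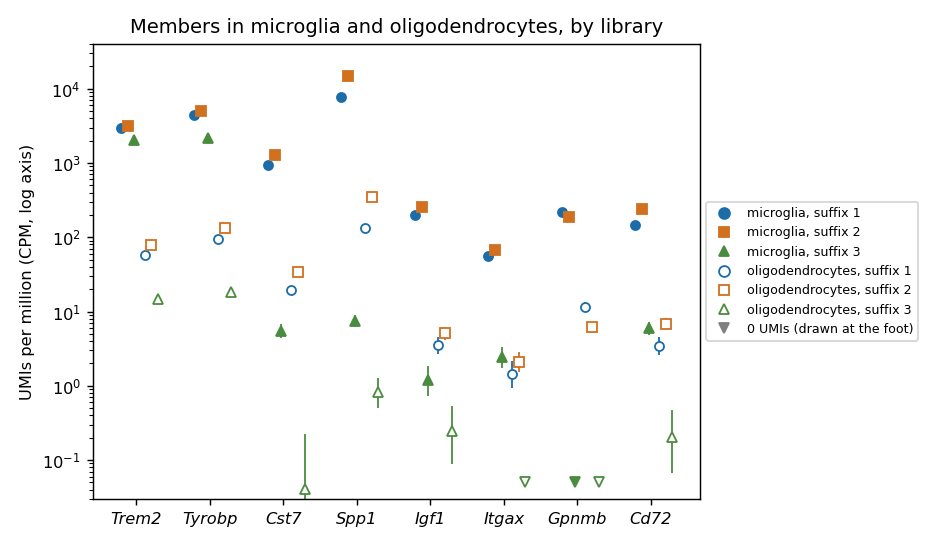
Level of each member (CPM, log axis) in microglia (filled) and oligodendrocytes (open) of the libraries of suffix 1, 2 and 3, with exact Poisson 95% intervals. Trem2 and Tyrobp in microglia stay between 2055 and 4952 CPM in all 3 libraries, while Spp1 runs from 7.44 to 14643 CPM and Gpnmb has 0 UMIs in suffix 3.

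With 1 library per suffix no test between libraries was possible. At a fold of 2 or more on CPM + 1, 7 of 8 members were higher in suffix 1 than in suffix 3, where 2.71% of 7238 genes were, and Trem2 was 1.44-fold higher. Likewise 7 of 8 were higher in suffix 2 than in suffix 3, against 3.4% of 7229 genes; these comparisons share the library of suffix 3, and the members were chosen with these differences known, so nothing is read from the counts. Between suffix 2 and suffix 1 none of the 8 passed a fold of 2, while 0.171% of 6423 genes were higher and 0.156% lower. The median gene was at 0.708 and 0.692 of its suffix 3 level in suffix 1 and 2; relative to that median Trem2 stood 2.03-fold higher in suffix 1. Libraries also differed in other ways. The median mitochondrial share of microglia was 2.35%, 2.29% and 3.22%, the heat shock gene Hspa1a, which rises with tissue handling, was at 743, 1139 and 2786 CPM by suffix while its list of 14 handling and immediate early genes summed to 45601, 50418 and 49828 CPM, and 904 barcodes of suffix 3 passed gates of more than 1 class against 279 and 275. The part of these in the differences was not tested.

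Within a library the induced members were very unevenly spread over microglia. The median microglial barcode held 18, 22 and 14 Trem2 UMIs by suffix, and the 10% of barcodes with the most Trem2 held 32.5%, 30.8% and 22.3% of its UMIs. For Spp1 the median was 2 UMIs in suffix 1 and 4 in suffix 2, but the top 10% of barcodes held 83.4% and 75.3% of the UMIs. In single barcodes Spp1 reached 3499 UMIs in suffix 1 and 6060 in suffix 2, and up to 21.8% of all UMIs of a barcode. Gpnmb was the most concentrated member, with 94.8% and 89.6% of its UMIs in the top 10%. Cst7 was more widely shared, with 54.5% and 45.4%. The members therefore range from a receptor pair with UMIs in nearly all microglia to genes with most of their UMIs in a small part of them.

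RNA released from broken cells puts some UMIs of abundant genes into barcodes of every class, and oligodendrocytes, which do not belong to the myeloid lineage, give a measure of it. Barcodes that hold more than 1 cell add to the same measure, and these sources were not told apart. A Spp1 UMI was found in 53.8% of 2118 oligodendrocytes of suffix 1 and 73.4% of 3400 of suffix 2, at 134 and 349 CPM, and in 0.477% of 3566 of suffix 3. A Trem2 UMI was found in 28.0%, 33.3% and 8.33% of oligodendrocytes and a Tyrobp UMI in 40.9%, 48.8% and 10.6%, well under the shares in microglia, whose levels were 51.6-, 40.7- and 141-fold higher for Trem2. For Spp1, neuroblasts were alike, with 56.9%, 71.8% and 0.649%. Microglia of suffix 1 and 2 held a Spp1 UMI in 75.3% and 88.3%, so the share is a poor measure for this gene, while the level was 57.6-fold (55.2 to 60.1) and 41.9-fold (41.0 to 42.9) that of oligodendrocytes. For Cst7 the oligodendrocyte share was 12.7%, 16.8% and 0.0280%, and for Igf1 it was 2.46%, 2.85% and 0.140%. Median depth of the compared classes was 7558, 8170 and 6637.5 UMIs in microglia and 6881.5, 5587.5 and 6363.5 UMIs in oligodendrocytes. The low levels of suffix 3 still stood above the oligodendrocytes of that library: Cd72 was 29.3-fold (12.1 to 92.0), Spp1 9.12-fold (5.67 to 15.5) and Igf1 4.83-fold (1.87 to 14.7) higher in its microglia.

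Across classes, the members did not share 1 pattern. Over the libraries summed, Trem2 was highest in microglia at 2945 CPM, followed by macrophages at 928 CPM and the monocyte/dendritic class (85 barcodes) at 665 CPM. Every class after these lay at 104 CPM or less. Neutrophils of suffix 1 held 116 CPM (93.8 to 143) and T cells 62.6 CPM (56.2 to 69.5), beside 57.3 CPM (53.6 to 61.1) in oligodendrocytes, so T cells of suffix 1 did not differ from that background beyond counting error (ratio 1.09, 0.963 to 1.24). T cells of suffix 2 were slightly above it (1.17, 1.06 to 1.28). By suffix, the ratio to oligodendrocytes was 0.899, 1.13 and 0.852 in neuroblasts and 1.67, 1.23 and 3.53 in astrocytes. The Trem2 level outside myeloid cells thus differed between classes, and the ratio of T cells lies within that spread. Tyrobp, an adaptor for many activating receptors, was highest in neutrophils, the phagocytic granulocytes of blood, at 6679 CPM in suffix 1 and 6443 CPM in suffix 2, both above microglia of the same library. A Tyrobp UMI was found in 100% and 98.4% of these neutrophils. Neutrophil barcodes were shallower, with medians of 2961 and 2431 UMIs against 7558 and 8170 in microglia. In suffix 1 and 2 the order is thus one of CPM and not of Tyrobp UMIs per barcode. In suffix 3, 25 neutrophils held Tyrobp at 4130 CPM against 2156 CPM in microglia. Median depths there were closer, at 6150 and 6637.5 UMIs. NK cells of suffix 1 and 2, which use Tyrobp for their Ly49 receptors, held it at 2360 and 2979 CPM. T cells of these libraries held it at 116 and 167 CPM, beside 94.7 and 133 CPM in oligodendrocytes.

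Lymphocytes carried some of the induced members. Cst7 was at 170 CPM (149 to 194) and 257 CPM (209 to 313) in NK cells of suffix 1 and 2, against 19.5 and 33.6 CPM in oligodendrocytes. T cells held Cst7 at 92.4, 133 and 85.4 CPM, and in suffix 3 a Cst7 UMI was found in 7 of 20 T cells, where 76 of 2406 microglia had one. Itgax was at 71.6 CPM (58.2 to 87.3) in NK cells of suffix 1, and its interval just meets that of microglia of suffix 1 (53.5 to 58.5). In suffix 2 the interval of NK cells (75.0 to 143 CPM) lay above that of microglia (64.8 to 68.9 CPM). Cd72 was at 257 CPM in 28 B cells, the lymphocytes in which it was first described. Igf1 was low in T cells of suffix 1 and 2, at 2.84 and 7.73 CPM against 3.54 and 5.07 CPM in oligodendrocytes.

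The monocyte/dendritic class, with 37 and 39 barcodes in suffix 1 and 2, held Spp1 at 1427 and 20365 CPM and Gpnmb at 443 and 1234 CPM. The Gpnmb UMIs of suffix 1 came from 5 barcodes, so few cells decide these values. Igf1 in the same barcodes was at 10.8 CPM and 8.91 CPM. Itgax was at 111 and 176 CPM there, from 41 and 79 UMIs, higher in CPM than in NK cells or microglia of the same library. Over the libraries summed, this class held the most Itgax of the classes in the heatmap, at 134 CPM. NK cells followed at 78.5 CPM and microglia at 54.0 CPM. Cd72 was at 173 and 227 CPM in suffix 1 and 2, against 148 and 243 CPM in microglia. Outside blood-derived cells, Spp1 was at 6223 CPM in 21 fibroblasts, each with a Spp1 UMI, and at 485 CPM in 154 mural cells, most of both from suffix 3. In the heatmap of classes, the Spp1 seen in oligodendrocytes, neuroblasts and astrocytes came from suffix 1 and 2, and was at 0.816, 1.22 and 1.23 CPM in suffix 3. Igf1 was low in every class shown but microglia and macrophages.

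**Figure D2:**
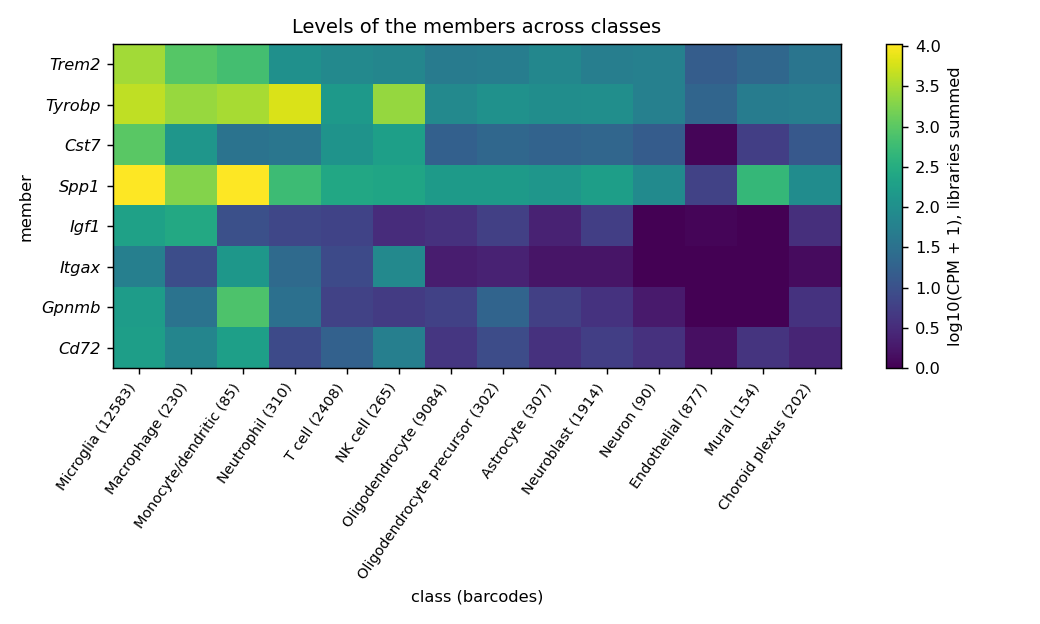
Level of each member as log10(CPM + 1) in every class of at least 50 barcodes, over the libraries summed, with the number of barcodes beside the class. Tyrobp is brightest in neutrophils (6213 CPM), and Igf1 is above 10 CPM in macrophages (271 CPM) and microglia (200 CPM) alone.

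Set against all classes outside the myeloid cells together, 8 of 8 members were at least 2-fold higher in microglia of suffix 1, where 12.9% of genes were higher and 36.2% lower, and 8 of 8 in suffix 2, where 12.7% were higher and 37.6% lower. Over all libraries it was again 8 of 8, against 12.8% higher and 35.6% lower. The members were chosen as genes of microglia with results of these data known, so nothing is read from these counts. In suffix 3 only 3 of the 8 reached the mean of 10 CPM needed for a comparison. Trem2 and Tyrobp were higher there, against 15% of genes. Spp1 was lower in microglia, as 26.3% of genes were; in suffix 3, 16 fibroblasts held 561 Spp1 UMIs and 142 mural cells held 301.

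Macrophages, the Mrc1 and Pf4 class that includes the border macrophages of meninges and vessels, are described next, beginning with Igf1. It was at 277 CPM (219 to 344) in macrophages of suffix 1, 310 CPM (235 to 401) in suffix 2 and 264 CPM (237 to 294) in suffix 3, and the intervals overlap. Microglia went from 200 and 253 CPM to 1.18 CPM over the same libraries, so the ratio of macrophages to microglia was 1.38 (1.09 to 1.72), 1.22 (0.926 to 1.59) and 224 (143 to 371). An Igf1 UMI was found in 71.4%, 61.9% and 70.2% of macrophages. Igf1 was thus the member with overlapping counting intervals across libraries in macrophages and a library-dependent level in microglia. Macrophages of suffix 1 and 2 held only 80 and 57 Igf1 UMIs, so overlap does not show that the level was constant.

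Trem2 was lower in macrophages than in microglia of the same library, with 1808, 2033 and 577 CPM and ratios of 0.612 (0.560 to 0.667), 0.640 (0.576 to 0.708) and 0.281 (0.261 to 0.302). Tyrobp was at 3740, 3713 and 2125 CPM, and in suffix 3 its ratio to microglia was 0.986 (0.948 to 1.03). Cst7, Itgax and Gpnmb had no UMI in the 181 macrophages of suffix 3, which allows up to 2.30 CPM. Spp1 was at 51.4 CPM there, with all 67 UMIs in 10 barcodes, 6.90-fold (5.05 to 9.36) above the microglia. Of the members, 0 of 8 were at least 2-fold higher and 1 of 8 (Cst7) at least 2-fold lower in macrophages of suffix 1, where 9.58% and 5.96% of 6658 genes were. In suffix 2 the counts were 0 and 3 of 8, against 11.4% and 10.1% of 6399 genes, and in suffix 3 they were 2 and 1 of 4 compared, against 5.34% and 11.1%. Over all libraries 0 of 8 were higher and 6 lower, against 7.48% and 5.04% of genes, but that sum takes 181 of 230 macrophages from suffix 3 and most microglia from the other libraries. Between libraries, 6 of 8 members were at least 2-fold higher in macrophages of suffix 1 than of suffix 3, against 8.82% of genes (15.1% lower), and 6 of 8 in suffix 2 than in suffix 3, against 9.54% (19.5% lower); the comparisons share suffix 3, and Igf1 and Tyrobp were the others.

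**Figure D3:**
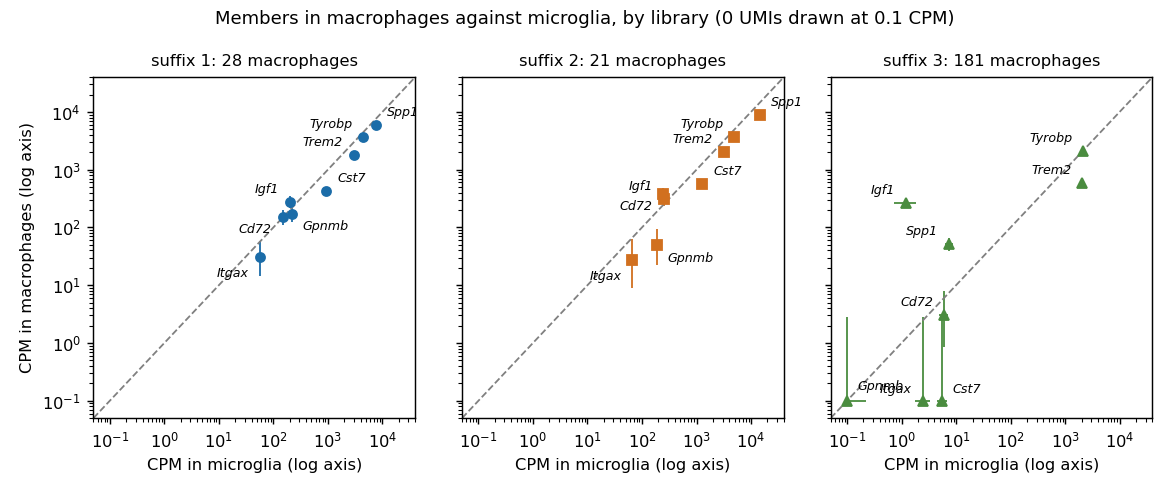
Level of each member in macrophages against microglia of the same library (CPM, both axes log), with exact Poisson 95% intervals; the dashed line marks equal levels and a gene with 0 UMIs is drawn at 0.1. In suffix 3, Igf1 lies at 264 CPM in macrophages and 1.18 CPM in microglia, while Trem2 lies below the line in every library.

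The macrophages of suffix 1 and 2 need care. With at least 2 UMIs each of Mrc1 and Pf4 asked for, a limit set after the data were seen, 12 and 13 of the 28 and 21 barcodes were left. Spp1 then stood at 617 and 257 CPM in place of 5849 and 8725 CPM, and Cst7 at 11.2 and 339 CPM in place of 425 and 560 CPM. Trem2 moved to 909 and 1623 CPM. Cd72 stood at 11.2 and 18.3 CPM in place of 152 and 380.5 CPM, Gpnmb at 11.2 and 18.3 CPM in place of 169 and 48.9 CPM, and Itgax at 0 and 9.17 CPM. In suffix 1 these are 1 UMI each of Cst7, Cd72 and Gpnmb and none of Itgax, and Trem2 was then less than 2-fold above the 568 CPM of suffix 3, so most of the 6 calls between suffix 1 and suffix 3 rest on the wider gate. Igf1 stayed at 292 CPM (191 to 428), 284 CPM (193 to 404) and 271 CPM (243 to 302). So the Igf1 level did not rest on the barcodes with a single UMI of a gate gene, and much of the level of the other induced members in suffix 1 and 2 did.

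To compare microglia at 1 depth, each barcode was thinned at random to 2000 UMIs, which left out 352, 460 and 241 shallower microglia (9.62%, 7.06% and 10.0%). Of 3308 thinned microglia of suffix 1, 917 had none of the 6 induced members, 917 had 1, 674 had 2, 800 had 3 or more, and 5 of those had all 6. In suffix 2, 987 of 6057 had none and 29 had all 6. In suffix 3, 2075 of 2165 had none and 1 had 2 members. At least 2 members were found in 44.6% (42.9 to 46.3) of microglia of suffix 1, 58.0% (56.8 to 59.3) of suffix 2 and 0.0462% (0.00117 to 0.257) of suffix 3. Oligodendrocytes thinned the same way had at least 2 in 2.04%, 5.08% and 0%. Spp1 was the induced member found in the most oligodendrocytes. Without it, at least 2 of the other 5 were found in 28.1%, 38.5% and 0.0462% of microglia and in 0.299%, 0.593% and 0% of oligodendrocytes.

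**Figure D4:**
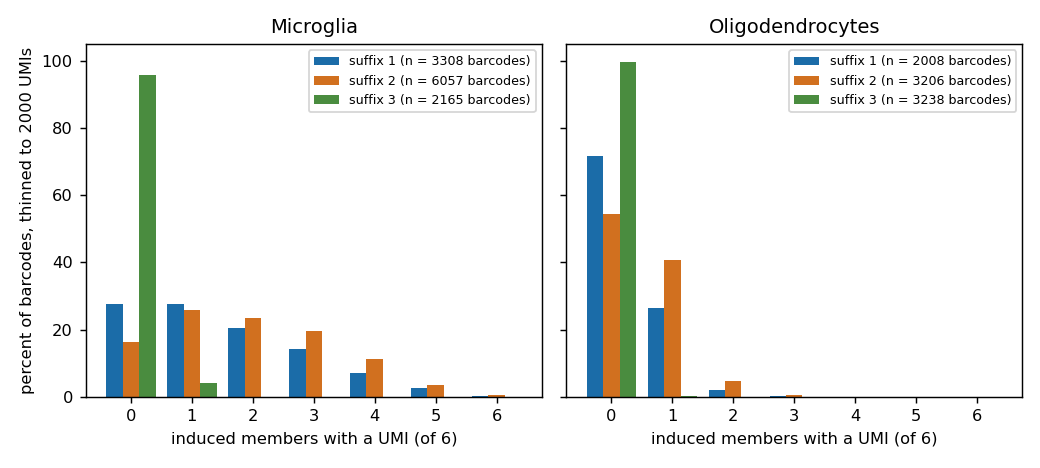
Percent of barcodes, thinned to 2000 UMIs, by the number of the 6 induced members with a UMI, in microglia and oligodendrocytes of each library. Microglia of suffix 1 and 2 spread from 0 to 6 members, whereas 95.8% of the microglia of suffix 3 have 0, and no oligodendrocyte has more than 3.

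The induced members were found in the same microglia more often than the product of their single shares. All 15 pairs of the 6 members had a ratio above 1 in suffix 1 (1.29 to 2.96, median 1.62) and in suffix 2 (1.15 to 2.17, median 1.40). Igf1 with Gpnmb was highest in both: 164 microglia of suffix 1 held both where the product gives 55.5, and 338 of suffix 2 where it gives 156. Gpnmb was nearly always found with Spp1, in 94.1% and 94.8% of Gpnmb-positive microglia, against 49.8% and 64.7% of the others. The lowest ratios were Itgax with Cd72 at 1.29 in suffix 1 and Cst7 with Spp1 at 1.15 in suffix 2. In thinned oligodendrocytes Cst7 with Spp1 stood at 1.19 in suffix 1 and 1.39 in suffix 2. For this pair a ratio above 1 was thus not particular to microglia, and in suffix 2 it was higher in oligodendrocytes. Spp1 with Igf1, Gpnmb and Cd72 stood at 1.19, 1.05 and 0.955 in oligodendrocytes of suffix 2. Other pairs were too rare in oligodendrocytes to compare. No test was run on these ratios.

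Depth before thinning moved with the number of members. Microglia with none of them had a median of 6254 UMIs in suffix 1 and 6115 in suffix 2, and those with 3 or more had 14557.5 and 13226, while the summed level of 10 oligodendrocyte genes was 1782 against 1176 CPM and 3277 against 958 CPM. The part of depth and of these genes in co-detection was not tested beyond the depth windows, which were chosen after the data were seen. Among microglia of 5000 to 10000 UMIs alone, the median ratio of the pairs was 2.05 and 1.503. Among those of 10000 to 20000 UMIs it was 1.26 and 1.17, with single pairs down to 0.933 in suffix 1. The ratio was thus higher in the shallower window than in the deeper one, where most microglia held 2 or more members (60.9% and 76.0%).

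**Figure D5:**
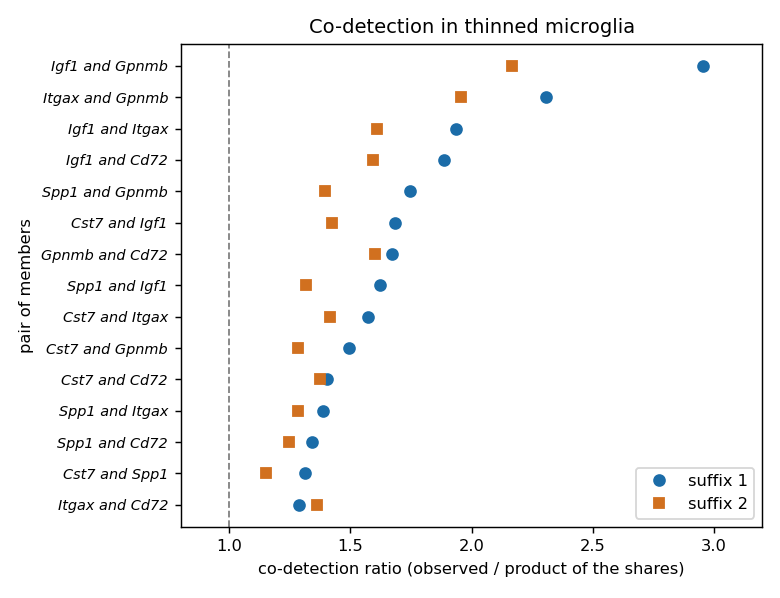
Co-detection ratio of the 15 pairs of induced members in microglia of suffix 1 and 2 thinned to 2000 UMIs; the dashed line at 1 marks the product of the single shares. Every pair lies right of the line in both libraries, with Igf1 and Gpnmb at 2.96 and 2.17.

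Trem2 and Tyrobp, which were not used to group the microglia, were higher where more induced members were found. Trem2 went from 2232 CPM (2164 to 2301) with none to 2691, 3078 and 3526 CPM with 1, 2 and 3 members and 3673 CPM (3528 to 3823) with 4 or more in suffix 1. In suffix 2 the steps were 2451, 2775, 3122, 3379 and 3647 CPM. Tyrobp went from 2707 to 6288 CPM and from 2850 to 6298 CPM between the same ends. The receptor thus differed by 1.61-fold and 1.43-fold between 3 or more and no members, and the adaptor by 2.11-fold and 2.01-fold. In the window of 5000 to 10000 UMIs the folds were 1.69 and 1.34 for Trem2 and 1.75 and 1.68 for Tyrobp.

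Other genes of disease-associated microglia followed the members. This list and those below were chosen with earlier results of these data known, so their counts are a description and test nothing. Between microglia with 3 or more (800 in suffix 1, 2097 in suffix 2) and with none (917 and 987), 17 of 17 listed genes in suffix 1 and 16 of 17 in suffix 2 were at least 1.5-fold higher, where 7.84% and 6.8% of genes were; the median fold of the list was 3.27 and 3.59, that of all genes 0.781 and 0.748. Fth1, ferritin heavy chain, was the exception at 1.49-fold in suffix 2. Lgals3, the lectin galectin-3, was at 478 CPM against 29.4 CPM in suffix 1 and 443 against 26.3 CPM in suffix 2. Lpl, lipoprotein lipase, was at 471 against 43.1 CPM and 434 against 42.1 CPM. Apoe, the main lipid carrier of the brain, was at 99393 CPM against 14785 CPM and at 83255 CPM against 12289 CPM. Oligodendrocytes held Apoe at 4919, 5895 and 1479 CPM by suffix. Fabp5, a fatty acid carrier, was 10.9-fold and 7.80-fold higher. Grouping by the 5 members without Spp1 (2 or more against none) gave 17 and 16 of 17, against 6.86% and 5.87% of genes, and over all libraries the list gave 17 of 17 with either grouping, against 6.52% and 5.91%. Of the 3979 microglia with no member over all libraries, 2075 came from suffix 3, and of the 2897 with 3 or more, 0 did. The sum over libraries thus also sets suffix 1 and 2 against suffix 3. In the depth windows 15 to 16 of the 17 were higher.

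Homeostatic genes went the other way. Of 12, 10 were at least 1.5-fold lower in each library, where 35.3% and 39.1% of genes were, and relative to the median of all genes 9 were. Without Spp1 in the grouping it was again 10 in each library, against 32.1% and 36.3% of genes. Within the depth windows the count was 9 and 10 of 12 at 5000 to 10000 UMIs and 10 and 7 at 10000 to 20000 UMIs, for suffix 1 and 2. Over all libraries 11 were lower with either grouping, against 46.4% and 43.1% of genes. That sum again sets suffix 1 and 2 partly against suffix 3. P2ry12, the purine receptor that guides processes to ATP, was at 138 against 796 CPM in suffix 1 and 108 against 840 CPM in suffix 2. Tmem119, a surface marker of resident microglia, was 0.230 and 0.224 of its level in microglia with none. Fcrls was higher instead, 1.71-fold and 1.56-fold. Among all genes that are no members, those with the greatest folds over the libraries together, in the same direction in suffix 1 and 2, were Lgals3, Cxcl14, Apoc4, Fabp3 and Lpl upward and Clec4a2, Slc2a5, Crybb1, Adgrg1 and S100a9 downward. Their ranking by that sum also takes in the microglia of suffix 3. S100a9 is a gate gene of neutrophils here, and 69 microglia also passed that gate. It was at 57.5 against 125 CPM in suffix 1 and 1.19 against 180 CPM in suffix 2. Cxcl14, a chemokine, was at 59.4 against 2.18 CPM in suffix 1 and 78.0 against 3.04 CPM in suffix 2.

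A list of genes of Trem2 and Tyrobp signalling stayed near the background of all genes. Besides genes downstream of the receptor it holds the adaptor gene Hcst and the genes Adam10 and Adam17. Of 11, 1 was at least 1.5-fold higher and 5 lower in each library, where 7.84% and 6.8% of genes were higher and 35.3% and 39.1% lower, with a list median of 0.711 and 0.681, close to that of all genes. The one higher was Hcst, which encodes DAP10, an adaptor that recruits PI3 kinase, at 118 against 37.6 CPM and 86.6 against 43.1 CPM. Syk, the kinase that binds phosphorylated Tyrobp, was at 26.2 against 54.0 CPM and 23.1 against 39.5 CPM, and Inpp5d (SHIP1), a phosphatase that opposes PI3 kinase, at 87.5 against 162 CPM and 71.5 against 131 CPM. Relative to the median of all genes 2 of the 11 in suffix 1 and 0 in suffix 2 remained at least 1.5-fold lower. Of 10 other receptors that pair with Tyrobp, 2 reached the mean of 10 CPM: Siglech was lower, at 0.277 and 0.202, and Clec5a was at 0.988 and 1.11. Most of these 10 listed receptors were thus too low in microglia to compare.

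Of 19 partners of the members, 14 could be compared. Cd44, a receptor for osteopontin and hyaluronan, was at 48.1 against 22.4 CPM and 48.6 against 10.6 CPM, and Ctsl, a lysosomal protease that is also in the list of disease-associated genes, was 1.77-fold and 2.10-fold higher. Itgb2, which pairs with Itgax, was 1.18-fold and 1.28-fold higher, and Itgam, its sister alpha chain, stood at 0.596 and 0.614. Igf1r, the receptor of Igf1, was at 19.4 against 18.0 CPM and 13.4 against 19.2 CPM. By library, 2 and 3 partners were at least 1.5-fold higher and 5 and 3 lower, shares of 14 that for the lower genes lie near or below the 35.3% and 39.1% of all genes; 7.84% and 6.8% of all genes were higher.

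Over 26 sums of a class within a library, the 3 genes with a pattern most like each member were in part shared between members. Trem2 was most like Ly86 (Pearson r = 0.99 of log2(CPM + 10) among 8191 genes), C1qb and Ctss, of which C1qb is part of the microglial gate. Tyrobp was most like Fcer1g (r = 0.99), Plek and Ccl3. Igf1 was most like Gm6377 (r = 0.92), Ms4a7 and Tmem106a, and Spp1 was most like Lpl (r = 0.81), Ifit2 and Apoc4. Gpnmb was most like Apoc4 (r = 0.89), Lpl and Ifit3b, and Cd72 was most like Ifit2 (r = 0.85), Mx1 and Lpl. Cst7 was most like Mx1 (r = 0.81), Cd52 and Cox6a2, and Itgax was most like Lat2 (r = 0.84), Oasl1 and Glipr1. Lpl was thus listed for Spp1, Gpnmb and Cd72. Among the members themselves, Cst7 and Cd72 were closest (r = 0.94) and Igf1 and Itgax least alike (r = 0.41). The sums share libraries, depth and free RNA, so these values describe the levels and carry no p.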

How the data were processed

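Brain cells of 3 conditions were captured on droplets, and the authors aligned the reads to mm10 with Cell Ranger 3.1.0; STAR and Seurat 3.1.1 are also named in the submitters' processing notes. The deposited file holds whole-number UMI counts per gene and barcode, not normalized, with the 3 libraries in 1 matrix. All values here were computed from these counts with Python 3.11.15, NumPy 2.4.6 and SciPy 1.17.1.

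Barcodes with at least 1000 UMIs and at most 30% mitochondrial counts were kept, 31982 of 35968. A barcode that passed gates of more than 1 class other than microglia and macrophage was set aside as mixed. No doublet caller was run, and 1594 microglia (12.67%) also passed another gate. Among thinned microglia with no induced member that share was 9.49%, 15.3% and 24.9% in suffix 1, 2 and 3. Folds were taken on CPM + 1 over genes with a mean of at least 10 CPM. Intervals for levels are Poisson, for shares Clopper-Pearson and for ratios conditional binomial, all exact, at 95%. A count of 0 was given a limit of 3 counts. With 1 library per condition no test was made and no p-value was computed. The scripts were tested on simulated data.

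Named genes were the members, markers of the gates, genes of fixed lists, the 3 genes most like each member and the 5 with the greatest fold each way. The members and lists were chosen with earlier results of these data known. Alternatives were other mitochondrial, UMI and gate limits, an upper limit on UMIs and genes, leaving out barcodes that pass another gate, other thinning depths, leaving out each library, and values within a library. Clec7a is a polymorphic pseudogene in GENCODE M21, and none of the 82 genes of that type has a row in the matrix. 1 gene of the homeostatic list is counted there but not reported here by itself.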

Additional observations from a re-analysis of the deposited data

How the results depend on the processing

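With the libraries pooled, the share of thinned microglia with 2 or more induced members was 43.3%, and it moved to 39.3% with an upper limit on UMIs and genes, 45.3% without barcodes that pass another gate, 32.5% and 55.3% when thinned to 1000 and 4000 UMIs, and 44.6%, 58.0% and 0.0462% within suffix 1, 2 and 3; leaving out 1 library gave 26.95% to 53.3%, the lowest without suffix 2 and the highest without suffix 3. The median co-detection ratio was 1.78 pooled, 1.56 when thinned to 4000 UMIs, 1.62 and 1.40 within suffix 1 and 2, and 1.47 (without suffix 3) to 2.61 (without suffix 2) with a library left out. Pooled ratios take in the thinned microglia of suffix 3, of which 95.8% had no member. The ratio within a library leaves such mixing out. Microglia was the highest class for 2 members pooled, for 4 without barcodes that pass another gate, for 4, 4 and 5 within suffix 1, 2 and 3, and for 3 to 5 with a library left out. Classes under 50 barcodes, other than macrophages, were left out of these counts, so fewer classes are ranked within a library. Among those left out, monocyte/dendritic barcodes of suffix 1 held Gpnmb at 443 CPM against 216 CPM in microglia. T cells of suffix 3 held Cst7 at 85.4 CPM against 5.49 CPM in microglia. Macrophages exceeded microglia for 1 member pooled, for 2 within each of suffix 1, 2 and 3, and for 1 to 2 with a library left out. The counts of disease-associated genes (16 to 17) and of homeostatic genes (9 to 11) stayed within 1.5 times under the alternatives over all depths; in the depth windows they were 15 to 16 of 17 and 7 to 10 of 12, the lowest homeostatic count in suffix 2 at 10000 to 20000 UMIs. Of 224 values of single members under the other settings, 92 moved beyond their counting interval; the upper limit on UMIs and genes took Spp1 in microglia from 10384 to 6179 CPM, Gpnmb from 168 to 84.9 CPM and Spp1 in macrophages from 1892 to 106 CPM. The causes were not tested.

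No paired analysis was possible because each condition has 1 library and the matrix does not say which library is which condition. Counting intervals leave out the spread between animals, which a pool of 8 mice in 1 library does not show, and differences between libraries cannot be told apart from differences of capture or handling.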

Other observations

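Genes induced by interferon were compared between libraries and between microglia of a library. In suffix 1, 5 of 6 listed genes were at least 2-fold higher in microglia than in suffix 3, against 2.71% of genes, and again 5 of 6 in suffix 2, against 3.4%; the comparisons share the library of suffix 3. Isg15, a ubiquitin-like protein, was at 1115, 2159 and 498 CPM by suffix, and Oasl2, an antiviral enzyme homologue, at 67.0, 103 and 6.79 CPM. Between microglia with 3 or more and with no induced members, 0 of the 6 in suffix 1 and 2 in suffix 2 (Ifit3 and Oasl2) were at least 1.5-fold higher, against 7.84% and 6.8% of genes. Isg15 stood at 891 against 1118 CPM in suffix 1 and 2188 against 1658 CPM in suffix 2.

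Of 14 handling and immediate early genes, 11 in suffix 1 and 9 in suffix 2 were at least 1.5-fold lower in microglia with 3 or more induced members, where 35.3% and 39.1% of genes were, and relative to the median of all genes 8 and 5 were. Il1b, the inflammatory cytokine, was the one higher in both, at 1.98-fold and 2.22-fold. Few cell cycle genes reached the mean of 10 CPM needed for a comparison: Mki67, a marker of dividing cells, was at 10.8, 15.8 and 5.08 CPM in microglia by suffix, while the 7 listed genes summed to 258, 308 and 539 CPM, mostly from Stmn1, a regulator of microtubules, at 194.5, 225 and 498 CPM.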
